A study of Mus musculus with 9 samples.

Results

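The mouse genes Isg15, Uba7, Ube2l6, Herc6 and Usp18 of the ISG15 modifier pathway, together with Parp9, Dtx3l, Parp14 and Parp12 of ADP-ribose signalling, were followed across 9 RNA sequencing libraries of mouse embryonic fibroblasts (MEFs). These 9 genes were chosen by name for their shared place among the effectors of the interferon response, and they are 9 of the 47937 genes in the count table. The libraries fall into 3 genotypes with 3 biological replicates each. WT cells are a clone with a conditional Eset1 allele and an otherwise undisrupted set of histone H3 lysine 9 (H3K9) methyltransferases. S1S2 cells carry disruptions of Suv39h1 and Suv39h2, whose products place the trimethyl mark at pericentric heterochromatin. G9Gl cells carry disruptions of G9a (gene Ehmt2) and Glp (gene Ehmt1), the pair of enzymes that dimethylates H3K9 across euchromatin. The conditional Eset1 allele is shared by all 3 genotypes. Per the methods of the study, each mutant was made from the conditional line with CRISPR/Cas9 and is 1 clone, chosen for the absence of the targeted proteins on western blots, so an effect of the genotype and an effect of the clone cannot be told apart. The methods also describe an inducible Cre construct and puromycin selection after gene disruption, and whether this holds for each library here is not stated. No interferon or other agent is named in the labels for any library, and the age and sex of the embryos are not given there.

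ISG15 is a small ubiquitin-like protein that cells make in response to interferon and attach to other proteins. Uba7 encodes its activating enzyme (E1), Ube2l6 its conjugating enzyme (E2) and Herc6 the main ISG15 ligase (E3) of the mouse, while Usp18 encodes the protease that removes ISG15 and also dampens signalling at the type I interferon receptor. Parp9, Parp12 and Parp14 encode members of the PARP family, which bind ADP-ribose or transfer it to proteins, and Dtx3l encodes a ubiquitin ligase that works in a complex with PARP9. Interferon induces these genes in many cell types, fibroblasts included.

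The libraries held between 21319778 and 32157623 counts, and the common biological coefficient of variation was 5.36%. In S1S2 libraries Suv39h1 fell from 108 ± 4.59 to 41.9 ± 3.14 TMM-scaled CPM (the usual per-library scaling of counts, corrected for composition; mean ± SD, n = 3), whereas Suv39h2 stood at 55.2 ± 2.34 CPM against 33.9 ± 0.671 in WT, so its count does not check the label. In G9Gl libraries Ehmt2 fell from 125 ± 9.63 to 54.3 ± 2.82 CPM and Ehmt1 fell from 104 ± 1.78 to 50.2 ± 1.62 CPM. A count over a whole gene does not show a small CRISPR change. All 7 fibroblast markers were present, with a summed level of 9781 to 11277 CPM in WT, 7365 to 7427 in S1S2 and 7714 to 8569 in G9Gl. The sum rests on the most abundant of them, and single markers differed. Col1a2, Col3a1, Pdgfrb and Thy1 fell in S1S2 (log2 fold changes -2.60, -3.01, -1.14 and -1.29). In S1S2 Vim was higher (0.72), and Col1a1 (-0.36) and Fn1 (0.089) changed less, each under a fold change of 2. In G9Gl Pdgfrb fell (-1.34) and Thy1 rose (2.94). There Col1a1, Col1a2, Col3a1, Fn1 and Vim stood at -0.44, -0.24, -0.86, -0.12 and -0.22. The 5 markers of macrophages and other blood cells summed to 6.28 to 6.58, 6.05 to 6.30 and 6.18 to 6.95 CPM, with 2, 2 and 4 of them above the floor of 3 counts in any library of WT, S1S2 and G9Gl. Most of that sum was Cd68 (4.36, 3.53 and 4.40 CPM in WT, S1S2 and G9Gl) and Cd14 (2.01, 2.61 and 1.77 CPM). Adgre1 had 0 counts in every library, Ptprc had 0, 0 and 8 counts over the 3 genotypes, and Csf1r had 3, 1 and 21. The 4 endothelial markers summed to 0.123 to 0.193, 1.55 to 1.70 and 0.790 to 2.35 CPM, mostly Kdr in S1S2 (1.22 CPM) and Cdh5 in G9Gl (1.01 CPM). The 4 epithelial markers summed to 0.298 to 0.548, 4.67 to 5.55 and 0.294 to 0.395 CPM, and in S1S2 Krt8 alone was 4.68 CPM, while Epcam stood at 0.198 CPM against 0.266 in WT and Cdh1 at 0.012 against 0.042. Krt18 had 11 counts over the S1S2 libraries (0.144 CPM) and 0 in WT and G9Gl. The part of these differences in the results was not tested. In bulk libraries such as these, fewer cells that express a gene and less RNA per cell cannot be told apart.

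Most of the genes rose in G9Gl cells, and fewer rose in S1S2 cells. A gene was called where the Benjamini-Hochberg adjusted p of edgeR's quasi-likelihood test was at most 0.01 and the fold change at least 2. The adjustment was taken over all 15540 tested genes. All 9 genes passed the filter on low counts, but Usp18, with 4, 3 and 10 counts in WT, passed only through the mutant libraries. Where every library had to hold 10 counts, 8 of the genes were tested. Of these 2 rose in S1S2 and 6 in G9Gl, where 728 and 682 genes in all were called in either direction. In G9Gl against WT, 7 of the 9 genes rose and 0 fell, where 6.77% of all tested genes were called higher and 3.40% lower. The 7 were Isg15, Uba7, Ube2l6, Herc6, Usp18, Parp14 and Parp12. In S1S2 against WT, 3 of the 9 rose, namely Isg15, Usp18 and Parp14, and 0 fell, where 4.66% of all tested genes were called higher and 4.34% lower. Isg15, Usp18 and Parp14 were called in both mutants, as were 1.62% of all tested genes, and both comparisons use the same WT libraries. The median log2 fold change of the 9 genes was 1.51 in G9Gl and 0.49 in S1S2, and the median over all tested genes was -0.0067 and -0.0032. Without the fold limit, at an adjusted p of at most 0.01, 9 of 9 genes were higher in G9Gl (19.0% of all tested genes) and 6 of 9 in S1S2 (20.3%). The G9Gl libraries lay wholly above the WT libraries for 9 of 9 genes, as for 27.3% of all tested genes, and the S1S2 libraries did for 7 of 9, as for 28.5%.

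**Figure D1:**
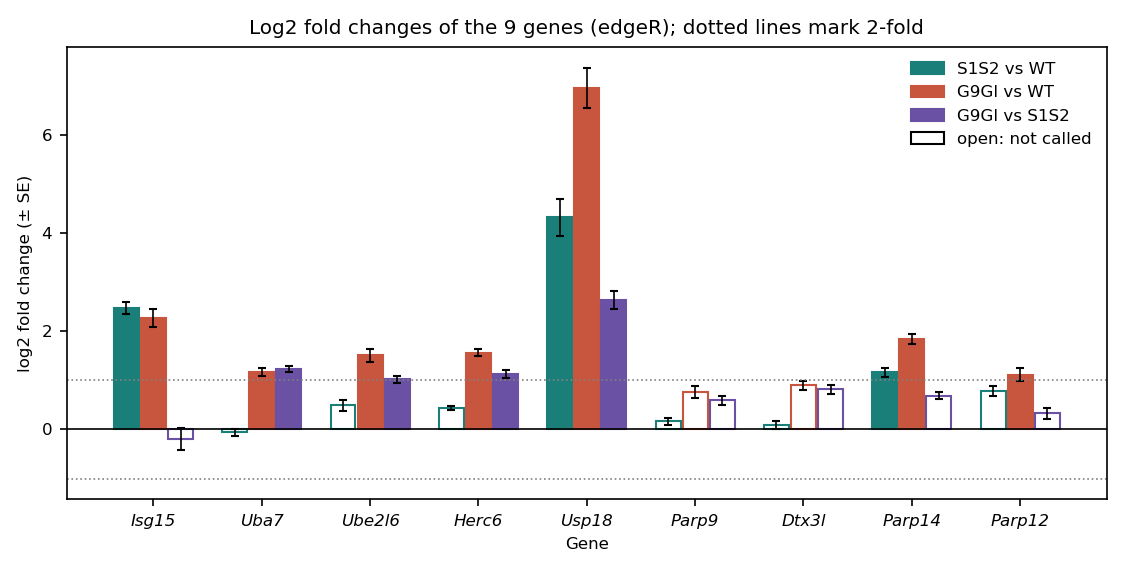
Bars give the log2 fold change of each of the 9 genes for S1S2 and G9Gl relative to WT and for G9Gl relative to S1S2, with error bars of ± 1 SE over 3 replicates per genotype, filled where called and open where not. Usp18 has the tallest bar in all 3 comparisons, at 4.32, 6.95 and 2.63, and the bars below 0 are those of Uba7 in S1S2 (-0.056) and Isg15 between the mutants (-0.20).

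The modifier itself rose in both mutants. Isg15 (ENSMUSG00000035692) lies on the minus strand of chromosome 4 at 156199424 to 156200818 (GRCm38). Its level was 5.69, 5.95 and 6.32 CPM in WT replicates 1 to 3, 28.5, 33.1 and 38.0 CPM in S1S2, and 35.8, 27.8 and 23.3 CPM in G9Gl. Every mutant library lay above every WT library, and the mutants overlapped each other. The log2 fold change was 2.47 (SE 0.127, adjusted p = 2.32e-10) in S1S2 and 2.27 (SE 0.185, adjusted p = 4.75e-10) in G9Gl against WT. The G9Gl level differed from the S1S2 level by -0.20 (SE 0.216, adjusted p = 0.186), which did not pass the test.

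Isg15 was the gene of the set whose promoter window, among those at hand, held a match to the interferon-stimulated response element, the sequence bound by the interferon-activated factor complex that contains Irf9. RefSeq promoter windows of 250 bases before to 50 after the gene start (GRCm38.p6) were at hand for 6 of the 9 genes (Isg15, Uba7, Ube2l6, Herc6, Dtx3l and Parp12). The core of the element, 2 copies of GAAA with any 2 bases between them, was searched on both strands and occurred in the Isg15 window and in none of the other 5, and in 3.44% of all 32851 windows. It matched 3 times there, with overlaps, in a run of 22 bases from 78 to 57 bases before the start. The run is shown with 4 bases on either side because it holds the matches found in these promoters, and capitals mark it (chr4:156200871-156200900, minus strand):
Isg15: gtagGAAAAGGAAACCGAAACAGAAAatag
The shorter form in which the second copy is GAA, part of the same core, also matched in the Isg15 window alone of the 6, and in 8.56% of all windows. The gamma-activated site TTCNNNGAA, bound by factors that interferon gamma activates, matched in 0 of the 6 windows and in 8.30% of all windows. A match describes these letters and is not evidence of binding.

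The enzymes that attach ISG15 formed a chain in which all 3 rose in G9Gl and none was called in S1S2. Uba7 (ENSMUSG00000032596) lies on the plus strand of chromosome 9 at 107975505 to 107984060. Its level was 11.1, 10.2 and 11.9 CPM in WT, 10.1, 11.1 and 10.7 CPM in S1S2, and 26.1, 23.3 and 25.2 CPM in G9Gl. WT and S1S2 overlapped and G9Gl lay above both. On the log2 scale Uba7 differed from WT by 1.17 (SE 0.0792, adjusted p = 1.08e-09) in G9Gl and -0.056 (SE 0.0735, adjusted p = 0.618) in S1S2. An annotated transcript, Gm20661, overlaps the end of Uba7 on the same strand, and 2.08% of the 75-base words of the Uba7 exons occur in another gene.

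Ube2l6 (ENSMUSG00000027078), the E2 of the chain, lies on the plus strand of chromosome 2 at 84798828 to 84810335. It stood at 6.18, 5.19 and 6.86 CPM in WT, 8.60, 8.31 and 8.75 CPM in S1S2, and 18.4, 15.5 and 17.95 CPM in G9Gl. The 3 genotypes did not overlap. In log2 terms the change was 1.51 (SE 0.140, adjusted p = 1.89e-09) in G9Gl, and 0.49 (SE 0.118, adjusted p = 0.00169) in S1S2, which was under the fold limit.

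Herc6 (ENSMUSG00000029798) lies on the plus strand of chromosome 6 at 57581000 to 57664632. Its level was 13.3, 13.0 and 14.0 CPM in WT, 17.5, 18.6 and 18.2 CPM in S1S2, and 43.7, 39.0 and 36.6 CPM in G9Gl. This ligase gene had the same stepwise order as Ube2l6, with no overlap between genotypes. Its change on the log2 scale was 1.57 (SE 0.0799, adjusted p = 7.07e-12) in G9Gl, and 0.43 (SE 0.0384, adjusted p = 1.73e-04) in S1S2, again under the fold limit. Of the 75-base words of its exons, 11.3% occur in another gene, chiefly Gm45193, which had 0 counts in every library.

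The protease gene Usp18 showed the widest range of the set. It went from near the detection floor in WT to a level per exon length above those of Uba7 and Herc6 in G9Gl. Usp18 (ENSMUSG00000030107) lies on the plus strand of chromosome 6 at 121245906 to 121270917. It had 4, 3 and 10 counts in WT, 79, 107 and 75 counts in S1S2, and 824, 531 and 643 counts in G9Gl. In CPM these were 0.123, 0.0992 and 0.322 in WT, 3.63, 3.90 and 3.53 in S1S2, and 28.9, 19.1 and 20.99 in G9Gl. A floor of 3 counts was worth 0.0923 to 0.141 CPM in these libraries, so the WT level is known only coarsely. The fold change in log2 units was 4.32 (SE 0.377, adjusted p = 1.27e-08) in S1S2 and 6.95 (SE 0.416, adjusted p = 2.89e-13) in G9Gl. From counts pooled over each genotype the ratio to WT was 20.4 in S1S2 (95% exact Poisson interval 12.5 to 35.6) and 127 in G9Gl (78.95 to 218), intervals that cover counting error only. Without WT replicate 3, which had the highest count, the log2 fold changes were 4.99 and 7.63.

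**Figure D2:**
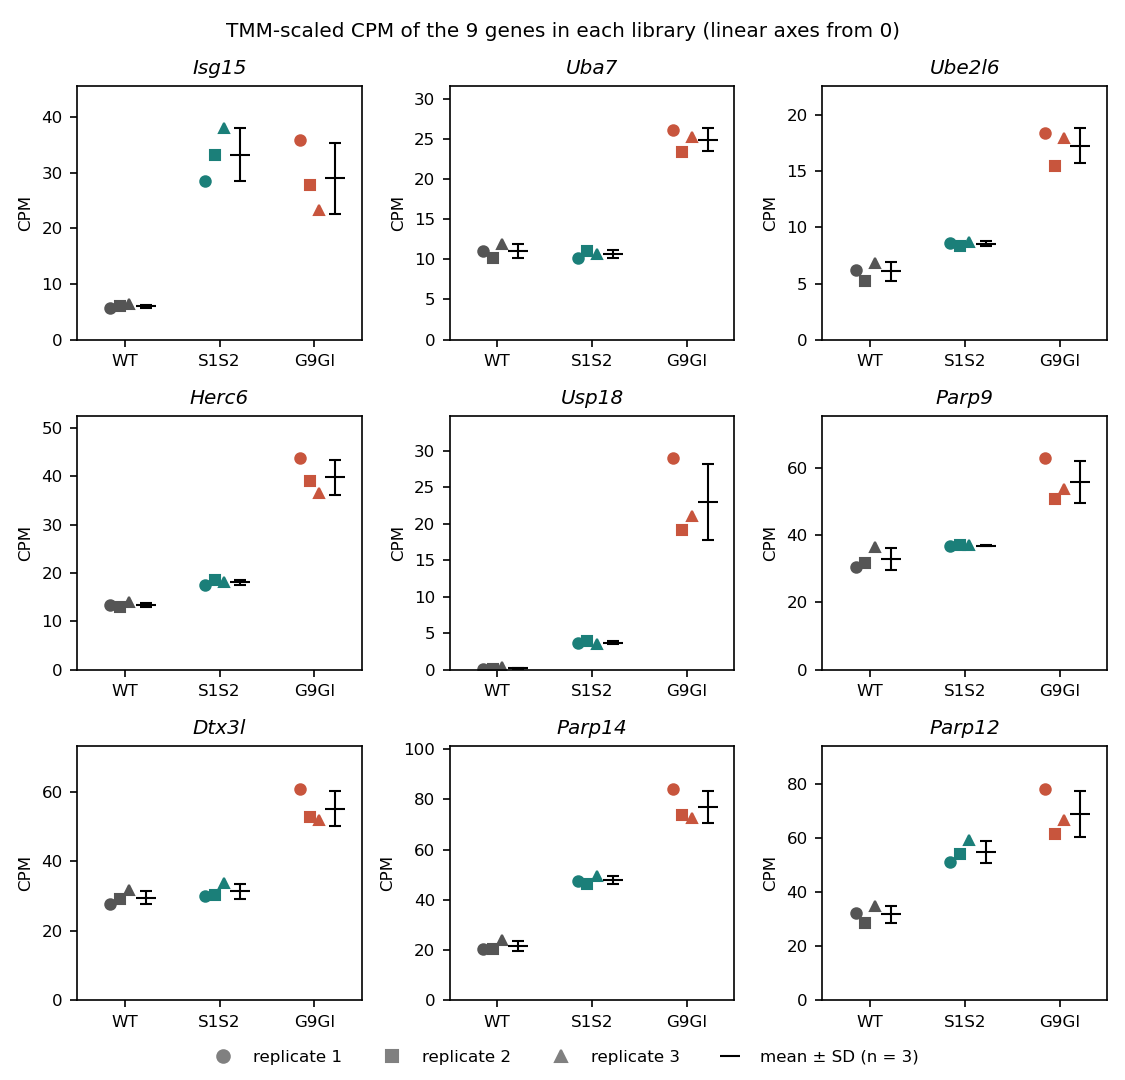
CPM of each of the 9 genes in every library on linear axes that start at 0, with a point per library, shaped by replicate, and the mean ± SD (n = 3) beside them. The G9Gl points lie above the WT points in all 9 panels, while the S1S2 points overlap the WT points for Uba7 and Dtx3l.

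Among the PARP genes, Parp14 rose in both mutants and Parp12 in G9Gl, and the Parp9 and Dtx3l pair was higher in G9Gl by less than the fold limit. Parp14 (ENSMUSG00000034422), which encodes a large ADP-ribosyltransferase with macrodomains, lies on the minus strand of chromosome 16 at 35832874 to 35871544. Its level was 20.2, 20.2 and 23.8 CPM in WT, 47.6, 46.4 and 49.6 CPM in S1S2, and 84.3, 73.9 and 72.5 CPM in G9Gl. The genotypes were separate, with S1S2 between WT and G9Gl. Relative to WT the log2 fold change was 1.16 (SE 0.0828, adjusted p = 7.49e-10) in S1S2 and 1.84 (SE 0.103, adjusted p = 6.85e-13) in G9Gl.

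Parp12 (ENSMUSG00000038507), which encodes a zinc finger PARP, lies on the minus strand of chromosome 6 at 39086410 to 39118349. Its level was 32.1, 28.5 and 34.7 CPM in WT, 51.2, 54.2 and 59.3 CPM in S1S2, and 78.3, 61.6 and 66.5 CPM in G9Gl. Again S1S2 lay between the other genotypes without overlap. Against WT the log2 fold change was 1.11 (SE 0.131, adjusted p = 6.77e-09) in G9Gl, and 0.79 (SE 0.103, adjusted p = 8.52e-07) in S1S2, under the fold limit. The start of the noncoding antisense gene 4930599N23Rik lies 124 bases from the Parp12 start, on the opposite strand.

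Parp9 and Dtx3l sit head to head on chromosome 16. Parp9 (ENSMUSG00000022906) runs on the plus strand from 35938470 to 35972605 and Dtx3l (ENSMUSG00000049502) on the minus strand from 35926511 to 35939151. Their starts lie 681 bases apart inside an overlap of 682 bases, of which 458 are exonic in both genes, and these bases are 9.40% of the Parp9 exons and 8.0% of the Dtx3l exons. Whether strand was used in counting is not stated, so reads from the overlap cannot be assigned to either gene with certainty.

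Parp9 stood at 30.4, 31.8 and 36.4 CPM in WT, 36.6, 37.0 and 36.9 CPM in S1S2, and 62.7, 50.6 and 53.7 CPM in G9Gl. Dtx3l stood at 27.8, 29.2 and 31.7 CPM in WT, 30.1, 30.2 and 33.9 CPM in S1S2, and 61.0, 52.7 and 51.8 CPM in G9Gl. For both genes the G9Gl libraries were the high ones, and S1S2 lay just above WT for Parp9 and overlapped it for Dtx3l. In G9Gl the log2 fold change was 0.76 (SE 0.121, adjusted p = 2.43e-07) for Parp9 and 0.90 (SE 0.0926, adjusted p = 1.12e-08) for Dtx3l. In S1S2 it was 0.16 (SE 0.0785, adjusted p = 0.0974) and 0.085 (SE 0.0788, adjusted p = 0.368), and neither passed the test.

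The Parp14 start lies at -66.9 kb from that of Parp9. Of the 10 tested genes that start within 250 kb of the Parp9 start, 3 were Parp9, Dtx3l and Parp14. Of the other 7, 0 were called in any of the 3 comparisons. This is near the background for 7 genes, at the shares given above for the comparisons with WT. Between the mutants 7.97% of all tested genes were called higher and 5.08% lower. The log2 fold changes of the other 7 ran from -0.60 to 0.37 in S1S2 and from -0.40 to 0.68 in G9Gl. The median over all tested genes of chromosome 16 was -0.086 in S1S2 and -0.20 in G9Gl, and with chromosome medians removed Dtx3l reached 1.10 in G9Gl and was called.

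**Figure D3:**
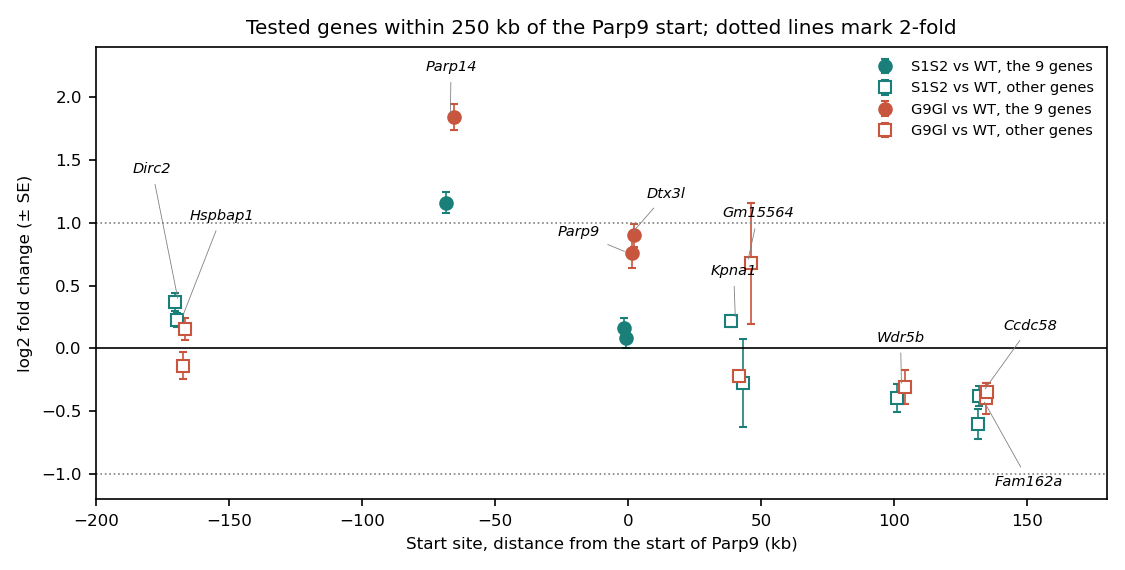
Log2 fold changes (± SE) against WT of the 10 tested genes around the Parp9 start, placed by the distance of their start from it in kb, in green for S1S2 and red for G9Gl, with filled circles for Parp9, Dtx3l and Parp14 and open squares for the other 7. In G9Gl the filled circles lie at 0.76, 0.90 and 1.84, and the open squares between -0.40 and 0.68.

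The direct comparison of the mutants asked whether the genes differed between the 2 disruptions. In G9Gl against S1S2, 4 of the 9 genes rose and 0 fell, against 7.97% and 5.08% of all tested genes. The 4 were the ISG15 enzymes Uba7, Ube2l6, Herc6 and Usp18. Usp18 was 2.63 higher on the log2 scale (SE 0.186, adjusted p = 2.45e-10) and Uba7 1.23 (SE 0.0613, adjusted p = 7.16e-10). Herc6 was 1.13 higher (SE 0.0785, adjusted p = 4.01e-10) and Ube2l6 1.02 (SE 0.0803, adjusted p = 2.23e-07), just past the fold limit. Isg15, the modifier that these enzymes handle, did not pass. Parp9, Dtx3l, Parp14 and Parp12 were higher by 0.60, 0.82, 0.69 and 0.33, each under the fold limit, with adjusted p-values of 4.11e-06, 3.90e-08, 1.51e-07 and 0.00298. Without the fold limit 8 of 9 genes were higher, as were 21.6% of all tested genes. The libraries of the mutants did not overlap for 8 of the 9 genes, with G9Gl above, as for 30.5% of all tested genes. Without G9Gl replicate 1 the count called was 3 of 9, since Ube2l6 stood at 0.97 (it was also lost without S1S2 replicate 2 or G9Gl replicate 3), and Isg15 differed by -0.38 (adjusted p = 0.0051), under the fold limit.

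Levels of different genes were compared as CPM per kb of merged exons. In WT, Parp12 (7.95 ± 0.780 CPM per kb, SD, n = 3) and Isg15 (7.92 ± 0.416) were at the top and overlapped. They were followed by Parp9 (6.75 ± 0.649), Dtx3l (5.16 ± 0.346), Ube2l6 (3.05 ± 0.422), Parp14 (2.30 ± 0.221), Uba7 (1.65 ± 0.125), Herc6 (1.45 ± 0.0511) and Usp18 (0.0651 ± 0.0439), whose libraries did not overlap those of the next gene. The modifier was thus near the top in WT and the protease last.

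In S1S2, Isg15 led at 43.9 ± 6.28 CPM per kb, ahead of Parp12 at 13.7 ± 1.04 and Parp9 at 7.56 ± 0.034. Dtx3l (5.48 ± 0.377) and Parp14 (5.14 ± 0.177) overlapped, and Ube2l6 (4.28 ± 0.111), Herc6 (1.95 ± 0.0585), Uba7 (1.59 ± 0.0726) and Usp18 (1.32 ± 0.0689) came last. The enzymes of the pathway made up the lower end of the order.

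In G9Gl, Isg15 (38.3 ± 8.40) and Parp12 (17.2 ± 2.14) again led. Behind them Parp9 (11.4 ± 1.29), Dtx3l (9.64 ± 0.881), Ube2l6 (8.65 ± 0.786), Parp14 (8.27 ± 0.691) and Usp18 (8.24 ± 1.87) each overlapped its neighbour in this order. Herc6 (4.28 ± 0.387) and Uba7 (3.72 ± 0.213) were the lowest of the 9, so that the protease, last in WT, stood above the E1 and the E3.

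**Figure D4:**
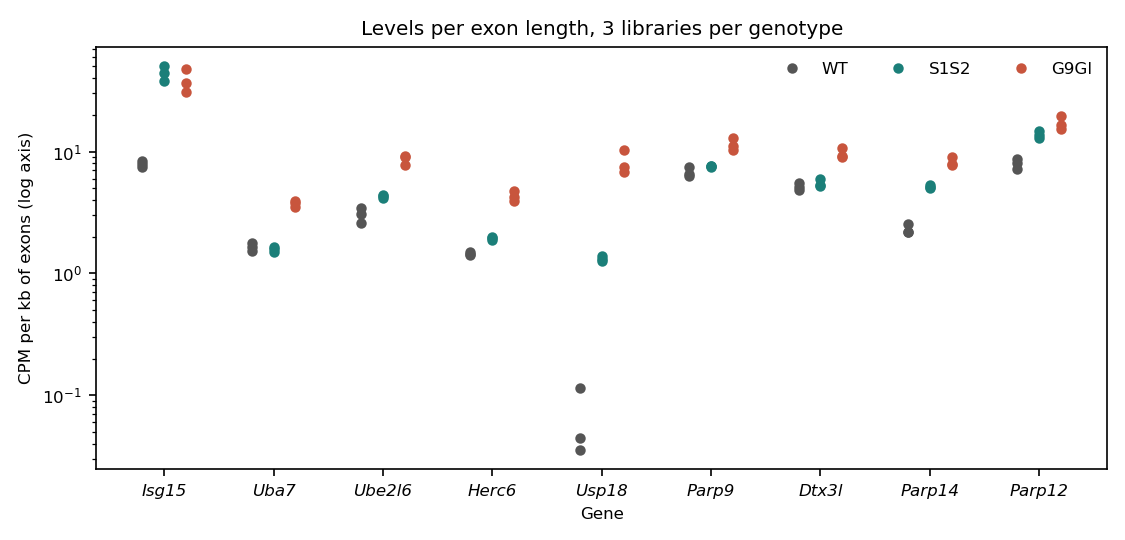
CPM per kb of exon of each gene on a log axis, with a point for each of the 3 libraries of each genotype. The Isg15 points are the highest in S1S2 and G9Gl, and the mean of Usp18 goes from 0.0651 in WT to 8.24 in G9Gl.

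In WT and in G9Gl, but not in S1S2, the 9 genes were all highest in 1 library. WT replicate 3 was the highest WT library for 9 of 9 genes, against 39.5% of all tested genes, and G9Gl replicate 1 was the highest G9Gl library for 9 of 9, against 35.2%. In S1S2, replicate 3 was highest for 5 genes and replicate 2 for 4, against 36.4% and 30.5% of all tested genes. The deviation of G9Gl replicate 1 from its genotype mean ranged from 0.071 to 0.35 on the log2 scale with a median of 0.15, and that of WT replicate 3 had a median of 0.13. Of 9 tested genes of interferon signalling, 6 were highest in WT replicate 3, and 4 each in G9Gl replicates 1 and 3. Leaving out WT replicate 3 left 3 of 9 genes called in S1S2 and 7 of 9 in G9Gl, and leaving out G9Gl replicate 1 left 7 of 9 in G9Gl.

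**Figure D5:**
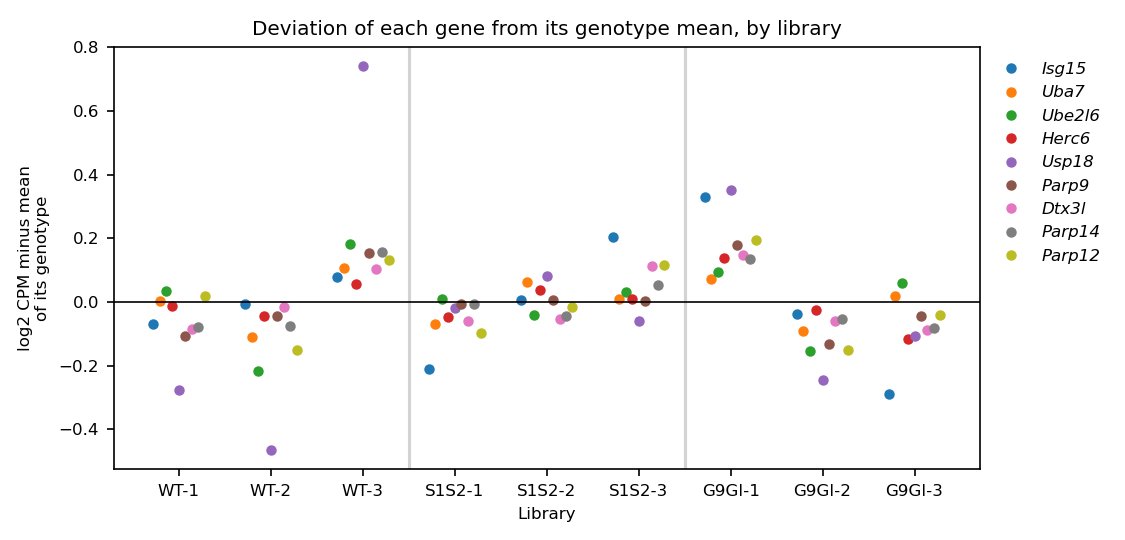
Log2 CPM of each gene minus the mean of its genotype, by library, with a coloured point per gene. All 9 points of WT replicate 3 and of G9Gl replicate 1 lie above 0.

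Other genes of the pathways were counted against the same shares of all tested genes, 4.66% called higher and 4.34% lower in S1S2, and 6.77% higher and 3.40% lower in G9Gl. At these shares lists of 8 to 13 genes would hold about 1 call, so a count of 0 or 1 is near the background and is given as a description. Of 10 further ISG15 ligases, proteases and HERC paralogs, 0 were called in either mutant, and the list had medians of -0.021 (S1S2) and -0.048 (G9Gl) on the log2 scale. Trim25, a ubiquitin ligase of the RIG-I pathway that can also act on ISG15, stood at 41.2 ± 4.83 CPM in WT, 58.5 ± 4.49 in S1S2 and 79.6 ± 4.90 in G9Gl, and its log2 fold changes of 0.50 and 0.95 were under the fold limit. Of 8 activating enzymes of other ubiquitin-like modifiers, 0 were called in either mutant, with medians of 0.14 and -0.061.

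Of 13 other PARP genes, 0 were called in S1S2, and in G9Gl 0 were called higher and 2 lower (all tested genes 6.77% and 3.40%), with medians of -0.039 and 0.016. Tiparp, a mono-ADP-ribosyltransferase induced by the aryl hydrocarbon receptor, fell from 110 ± 7.04 to 52.8 ± 0.307 CPM (-1.06 in log2 units, SE 0.0538, adjusted p = 3.84e-11). Parp16, an enzyme of the endoplasmic reticulum membrane, fell from 4.12 ± 0.0757 to 1.61 ± 0.363 CPM (-1.36, SE 0.184, adjusted p = 3.02e-06). Parp10, named after its values were seen, stood at 26.3 ± 1.504, 26.9 ± 2.23 and 52.6 ± 4.86 CPM in WT, S1S2 and G9Gl, and its log2 fold change of 0.999 (adjusted p = 3.92e-09) was just under the limit. Zc3hav1, the zinc finger antiviral protein gene, stood at 136 ± 6.49, 175 ± 7.82 and 173 ± 10.04 CPM, with log2 fold changes of 0.36 and 0.34 under the limit.

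Of 10 ADP-ribose hydrolases and other Deltex ligases, 8 were tested, and 1 was called higher in each mutant, near the 4.66% and 6.77% of all tested genes for a list of this size. In S1S2 it was Macrod1, a mitochondrial ADP-ribose hydrolase, at 0.703 ± 0.0812 CPM in WT and 1.55 ± 0.364 in S1S2 (1.12, SE 0.208, adjusted p = 0.00181), a rise at a low level. In G9Gl it was Dtx4, a Deltex ubiquitin ligase, at 21.6 ± 0.490 CPM in WT and 51.2 ± 0.717 in G9Gl (1.24, SE 0.0222, adjusted p = 2.72e-12). The medians of this list were -0.12 and -0.071.

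Of 10 genes of type I interferon signalling, 9 were tested, and 1 rose in S1S2 and 2 in G9Gl, where 4.66% and 6.77% of all tested genes were called higher. The gene left out of testing was Ifnb1, the interferon beta gene, which had 0 counts in every library, where 3 counts would be 0.0923 to 0.141 CPM. Irf7, which encodes a factor that amplifies the interferon response, stood at 1.78 ± 0.444 CPM in WT, 8.57 ± 1.43 in S1S2 and 22.5 ± 5.64 in G9Gl. Its log2 fold change was 2.26 (SE 0.251, adjusted p = 1.59e-07) in S1S2 and 3.65 (SE 0.290, adjusted p = 5.31e-11) in G9Gl. Irf9, the DNA-binding part of the complex that interferon activates, stood at 17.1 ± 1.23, 25.8 ± 1.18 and 59.7 ± 8.14 CPM, and it was called in G9Gl (1.799, SE 0.126, adjusted p = 1.11e-11). In S1S2 its change was 0.58 (SE 0.0718, adjusted p = 4.10e-05), under the fold limit. The medians of the list were 0.32 and 0.26.

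Outside the 9 genes, those whose pair of changes lay nearest to the median pair of the set, 0.49 in S1S2 and 1.51 in G9Gl, were Prkd1, Sox11, Dhrs9, Ank and Lmo7. Their distances in log2 units were 0.0851, 0.0949, 0.0991, 0.101 and 0.103 among 12855 genes with a mean of at least 1 CPM. The distance is a description over 3 genotypes.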

How the data were processed

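Stranded total RNA was sequenced in paired ends. The authors used cutadapt for trimming, STAR 2.5.2b for alignment to GRCm38 and TEtranscripts for counting, and the deposited values are these raw read counts per gene, not normalized. The annotation release and the use of strand in counting are not given in the sources used here, and the study's methods were taken to describe these libraries. Repeats were not analysed here. Of 47937 genes, 47224 were matched by identifier to GENCODE M21 and 713 were not.

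Counts were filtered with filterByExpr and tested in R 4.3.3 with edgeR 4.0.16 (TMM factors, glmQLFit and glmQLFTest) in 1 fit of all 9 libraries with a coefficient per genotype, and adjusted p-values cover all 15540 tested genes. Calls needed both an adjusted p at or under 0.01 and a fold change of 2 or more. The SE was computed from replicate log2 CPM (prior count 2). Floors and intervals cover counting error only, and p-values measure the spread between 3 cultures of 1 clone. The fit was tested on simulated data. DESeq2 1.42.0, other factors and filters, stricter and looser limits, chromosome medians and left-out replicates were tried as alternatives.

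The rule for named genes was all 9 genes, the genes of fixed lists that were called, and the 5 nearest in pattern, while other names were added after values were seen. The genes and lists were chosen with earlier results of these data known. A gene of the interferon list is not reported here, and its counts were taken without it. Sequences are from RefSeq (GRCm38.p6).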

Additional observations from a re-analysis of the deposited data

Results flagged for a closer look

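The change of 4 genes differed between the mutants by more than the fold limit, as tested by the direct comparison of G9Gl with S1S2 in edgeR. The difference in log2 fold change was 1.23 for Uba7, 1.02 for Ube2l6, 1.13 for Herc6 and 2.63 for Usp18. In each the 3 G9Gl libraries lay above every S1S2 library, as for 30.5% of all tested genes. The same held for Parp9, Dtx3l, Parp14 and Parp12, which passed the adjusted p limit but not the fold limit. In a test against the fold limit itself (glmTreat) Usp18 was called, as were 1341 of the 15540 tested genes in either direction. Uba7 (adjusted p = 0.0151), Herc6 (0.103) and Ube2l6 (1) were not called. The 2 mutants are 1 clone each, so the genotype and the clone cannot be told apart.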

How the results depend on the processing

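The counts of genes called were 3 of 9 in S1S2, 7 of 9 in G9Gl and 4 of 9 between the mutants. They were the same with DESeq2, with its size factors, without composition factors, without a filter on low counts and with only the compared libraries. With an adjusted p of at most 0.05 and no fold limit the counts were 6 in S1S2, 9 in G9Gl and 8 between the mutants, where 7599, 7138 and 8288 of the 15540 tested genes passed in either direction. With a test against the fold limit itself (glmTreat) 2 were called in S1S2, 5 in G9Gl and 1 between the mutants. Of the 15540 tested genes 735, 1045 and 1341 were called in either direction, so 1 of 9 between the mutants is near the background. Parp14 in S1S2 (adjusted p = 0.0906), and Uba7 (0.0685) and Parp12 (0.344) in G9Gl, were no longer called. Between the mutants Uba7 (0.0151), Herc6 (0.103) and Ube2l6 (1) were lost as well. Leaving out 1 replicate at a time gave 3 to 3 in S1S2, 7 to 7 in G9Gl and 3 to 4 between the mutants, where Ube2l6 was lost without S1S2 replicate 2, G9Gl replicate 1 or G9Gl replicate 3. A minimum of 10 counts in every library removed Usp18 and gave 2, 6 and 3 of the 8 genes left. Over all genes under that filter 728, 682 and 962 were called in either direction, against 1398, 1580 and 2028 in the main fit. With chromosome medians removed, Dtx3l in G9Gl was called at 1.10, Ube2l6 between the mutants fell to 0.93, and Uba7 in S1S2 was reversed at 0.017 (adjusted p = 0.894). It was not called under either setting. With the replicate number as a block the counts were 3, 7 and 4. The deviations of libraries with the same number had low mean correlations. These were 0.048 in S1S2 against WT (0.018 to 0.103), 0.043 in G9Gl against WT and -0.054 in G9Gl against S1S2. With 3 pairs per comparison these values cannot exclude a pairing by number. The WT level of Usp18 rests on 17 counts in all.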
